A study of Rattus norvegicus with 6 samples.

Results

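The genes described here are 39 named genes of the S phase and mitosis programme, read in the livers of rats that had received a faecal microbiota transplant. They are listed by gene name, from G1/S cyclins to spindle proteins, in a list drawn up with earlier results of these data known. Of the 39 names, 38 matched a row among the 30957 genes of the expression table, and Ccnb2 had no row of that name. The recipients were female Sprague Dawley rats, bought at an age of 3 weeks, whose own gut microbes were depleted with 3 antibiotic courses of 7 days in both groups. The t-PBS rats then received faecal suspension by gavage for 14 days from donors injected with PBS, and the t-DHEA rats received it from donors injected with dehydroepiandrosterone (DHEA), an androgen precursor used to induce a polycystic ovary-like state in rats. Each group had 6 rats, of which 3 per group gave a liver library, and the faecal pellets were pooled before transfer, so that recipients of a group shared donor material. Livers are called here by group and rat number. The question was whether the transplant altered hepatic transcription, and here whether it did so for the machinery of cell division.

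Division of a cell runs through ordered steps. D-type and E-type cyclins release E2F transcription factors, E2F targets license and copy the DNA, and a later wave of genes, induced through Foxm1 and the MuvB complex, supplies the kinases, spindle and checkpoint proteins of mitosis. Most hepatocytes of a resting liver are outside the cycle but can re-enter it after injury or loss of tissue, while non-parenchymal cells also divide in the organ. In RNA of whole liver, fewer dividing cells and less of a transcript per dividing cell cannot be told apart.

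Between 12348511 and 14316886 counts fell on genes in each liver, and values are given as CPM, counts scaled to a common library size with TMM factors. A count of 0 allowed up to 3 counts, equal to 0.21 to 0.248 CPM, and this limit covers counting error only. Of the 38 genes found, 32 passed the filter of edgeR on low counts and were tested, and 6 did not (Cdc6, Rrm2, Aurkb, Ttk, Ube2c and Kif23). The hepatocyte markers together made up 157923 to 185717 CPM in each liver, lowest in t-PBS rat 2 and highest in t-DHEA rat 1.

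Promoters of genes in this programme carry known sequence elements, and 6 are shown because their genes carry the contrast described next between mitosis and replication genes. RefSeq promoter sequence (rat build GRCr8, 250 bases before to 50 bases after the start) was matched by symbol for 28 of the 39 genes. The 150 bases before the start are printed, 5′ to 3′ on the gene's strand, for 4 mitosis genes (Cdk1, Cdc20, Top2a, Mki67) and for 2 helicase genes (Mcm6, Mcm7). Capitals mark elements on either strand. They are CCAAT (the NF-Y box, ATTGG on the other strand), the cell cycle genes homology region as TTTGAA, its variant with the letters TTCGAA, and an E2F site in any of its forms, spelled TTGGCGC, or with other letters TTCGCGC, or in the last form TTCCCGC. The variant TTCGAA reads the same on both strands.
Cdk1 (chr20:19265143-19265292, plus strand): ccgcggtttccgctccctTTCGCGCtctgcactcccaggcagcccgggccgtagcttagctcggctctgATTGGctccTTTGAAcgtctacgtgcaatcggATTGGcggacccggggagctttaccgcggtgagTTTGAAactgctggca
Cdc20 (chr5:137255800-137255949, minus strand): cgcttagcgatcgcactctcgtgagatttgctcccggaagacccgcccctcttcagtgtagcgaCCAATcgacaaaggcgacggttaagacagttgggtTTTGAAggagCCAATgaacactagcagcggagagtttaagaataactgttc
Top2a (chr10:84473094-84473243, minus strand): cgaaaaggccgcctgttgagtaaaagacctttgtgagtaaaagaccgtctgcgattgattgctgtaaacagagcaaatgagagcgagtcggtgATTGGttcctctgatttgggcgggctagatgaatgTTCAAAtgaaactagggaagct
Mki67 (chr1:199952594-199952743, minus strand): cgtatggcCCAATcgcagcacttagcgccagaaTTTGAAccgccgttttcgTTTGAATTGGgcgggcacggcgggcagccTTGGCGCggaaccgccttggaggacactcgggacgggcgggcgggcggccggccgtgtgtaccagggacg
Mcm6 (chr13:42404353-42404502, minus strand): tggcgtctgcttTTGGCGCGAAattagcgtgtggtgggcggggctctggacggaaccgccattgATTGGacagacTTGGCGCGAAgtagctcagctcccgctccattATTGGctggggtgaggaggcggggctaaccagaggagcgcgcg
Mcm7 (chr12:22163179-22163328, minus strand): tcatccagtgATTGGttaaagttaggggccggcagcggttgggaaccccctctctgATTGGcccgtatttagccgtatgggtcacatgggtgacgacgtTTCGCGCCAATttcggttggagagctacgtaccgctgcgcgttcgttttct
Where capitals run on, elements overlap or abut, as in the joined E2F forms of Mcm6 and the E2F and CCAAT letters of Mcm7. Promoters of other genes described below are not printed and held fewer of the elements. In the same 150 bases Bub1b, Pcna and Aurka held none, Kif11 and Ccnb1 only CCAAT, and Rrm1 only TTCGAA. Pcna held no E2F form in the whole 300 bases either. Over the whole 300 bases, CCAAT was found in 21 of the 28 promoters (75%), against 37.5% of the 33469 rat promoters in the table. Either form of the homology region was found in 15 (53.6%, against 19.7%), in 12 of the 18 promoters of mitosis genes and in 3 of the 10 others. An E2F form was found in 11 (39.3%, against 7.52%), in 3 of the 18 and in 8 of the 10. The 18 promoters include those of Ccnb2, Ttk and Kif23, so they are not those of the 18 mitosis genes tested for expression. These are matches of letters, and binding was not measured.

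In none of the 32 genes was the group difference beyond the spread between rats by edgeR's quasi-likelihood test. Genes were called at the criteria of the study, which asked for a fold-change over 1.2 and an unadjusted p under 0.05. By these, 0 of the 32 genes were called, whereas 584 of all 12210 genes tested were (4.78%, with 1.85% higher and 2.93% lower in t-DHEA). None of the 32 had an unadjusted p below 0.05, the lowest being 0.0921 for Bub1b, and the lowest Benjamini-Hochberg adjusted p was 0.993. DESeq2 and the likelihood-ratio test of edgeR each called 1 of the 32, Bub1b as lower in t-DHEA, and limma on FPKM called none. DESeq2 called 3.4% of all genes in either direction, and the likelihood-ratio test 4.58%. With no filter on low counts, 0 of the 38 genes were called, against 4.36% of all genes, and 33 of the 38 estimates were lower. Of the 12210 genes, 0 reached an adjusted p below 0.05 in the quasi-likelihood test (lowest 0.131) and 615 had an unadjusted p below 0.05, while DESeq2 gave 24 genes and the likelihood-ratio test 25 at that adjusted p. The quasi-likelihood test without the filter gave 3, and none of these sets held a cell cycle gene of the 39.

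The estimates nevertheless lay mostly on one side. In t-DHEA livers 27 of the 32 genes had a negative log2 fold-change and 5 a positive one, with a median of −0.29 and a range from −1.71 to 0.27, where the median over all genes tested was 0.0013. The groups overlapped for each of the 32 genes, while they were separate for 10.1% of all genes, 5.42% with t-DHEA lower. The 95% interval of the log2 fold-change included 0 for 32 of 32 genes. It was narrow for Mcm7 (−0.39 to 0.18) and wide for Ccna2 (−3.90 to 1.23), so that the data do not show that the groups were alike in mitosis genes.

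**Figure D1:**
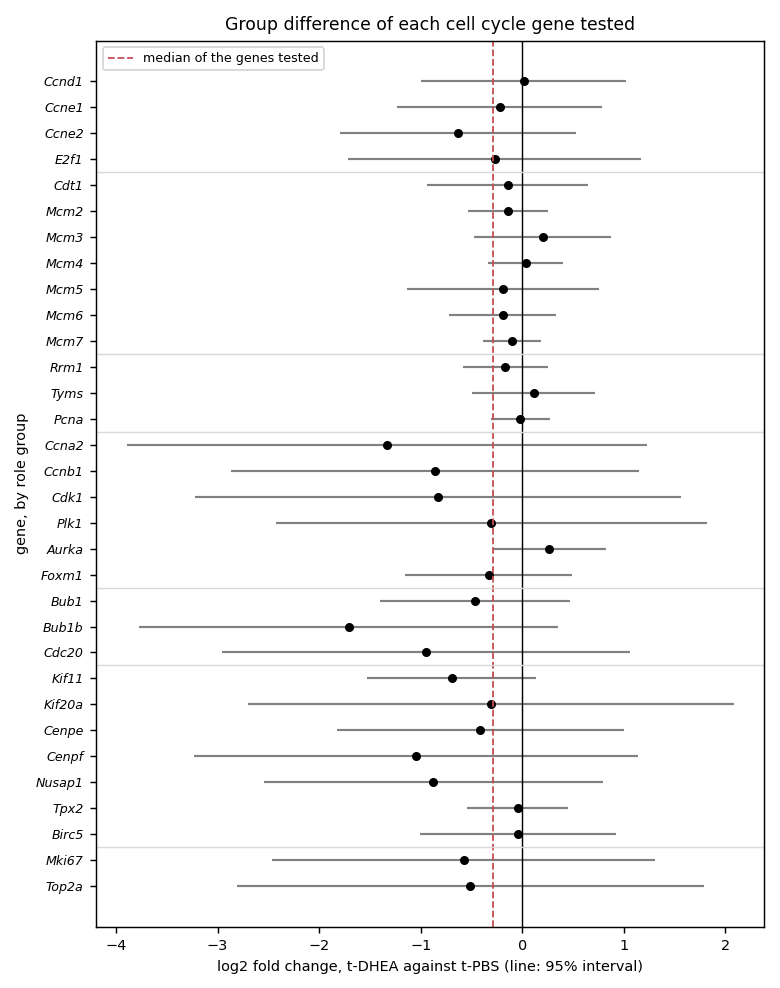
Log2 fold-change of t-DHEA against t-PBS livers (x axis) for each of the 32 cell cycle genes tested (y axis, grouped by role), with points for the estimate and lines for its 95% interval. Intervals are shorter for most replication genes than for most mitosis genes, though that of Mcm5 runs from −1.13 to 0.75. Each of the 32 includes 0.

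The difference came from particular livers. t-PBS rat 2 was the highest of the 6 livers for 24 of the 32 genes, although it was the highest for 17.9% of all genes tested. t-DHEA rat 2 was the lowest for 21 of the 32, against 18.9% of all genes. Within the groups, t-PBS rat 2 lay above both other t-PBS livers for 30 of the 32 genes, t-DHEA rat 3 was the highest t-DHEA liver for 26 and t-DHEA rat 2 the lowest t-DHEA liver for 24. Each group thus held a liver with high levels. The ordering was seen in these values and carries no test.

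**Figure D2:**
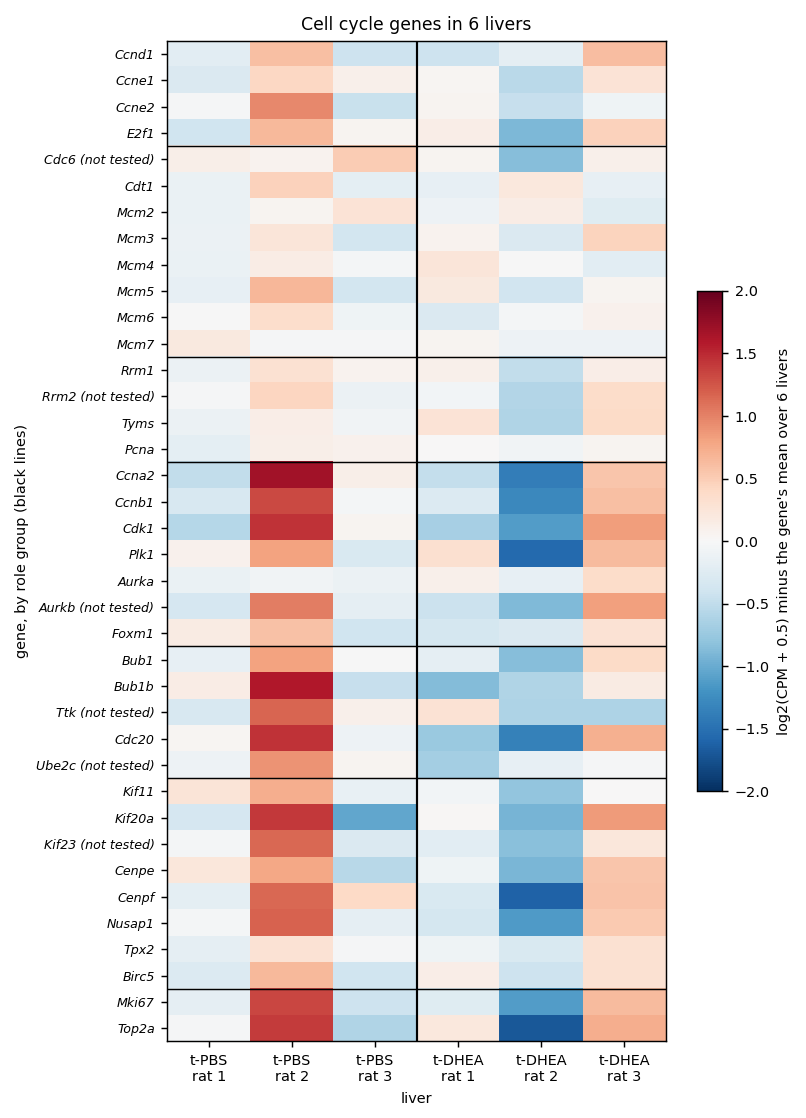
Level of the 38 cell cycle genes found (y axis, by role group between black lines) in the 6 livers (x axis), as log2(CPM + 0.5) minus the gene's mean over the 6 livers, red above and blue below that mean. From Ccna2 down, the columns of t-PBS rat 2 and t-DHEA rat 3 are mostly red and that of t-DHEA rat 2 mostly blue. The rows of Mcm2 to Mcm7 are pale, that of Mcm5 less so than the others.

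Mitosis genes carried this pattern most. The summed level of the 22 mitosis genes found was 37.6, 97.7 and 34.3 CPM in t-PBS rats 1, 2 and 3, and 35.6, 18.3 and 62.8 CPM in t-DHEA rats 1, 2 and 3. Group means were 56.5 ± 35.7 CPM (SD, n = 3) in t-PBS and 38.9 ± 22.5 CPM in t-DHEA livers. Rat 1 of either group and t-PBS rat 3 lay close together, and t-PBS rat 2 stood 2.72 times above the mean of the other t-PBS livers. The 12 genes of DNA replication, by contrast, summed to 66.8, 79.9 and 71.6 CPM in t-PBS and 73.7, 62.1 and 71.7 CPM in t-DHEA livers, a span of 1.29 times between the lowest and the highest liver against 5.35 times for mitosis genes. Such sums are set mostly by the genes with most counts, and single genes did not all follow them. The replication gene Mcm5 ran from 0.898 to 2.36 CPM over the livers. The mitosis genes Aurka and Tpx2 ran only from 2.24 to 3.48 and from 4.04 to 6.41 CPM. In the values that follow, 3 numbers for a group are those of rats 1, 2 and 3.

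**Figure D3:**
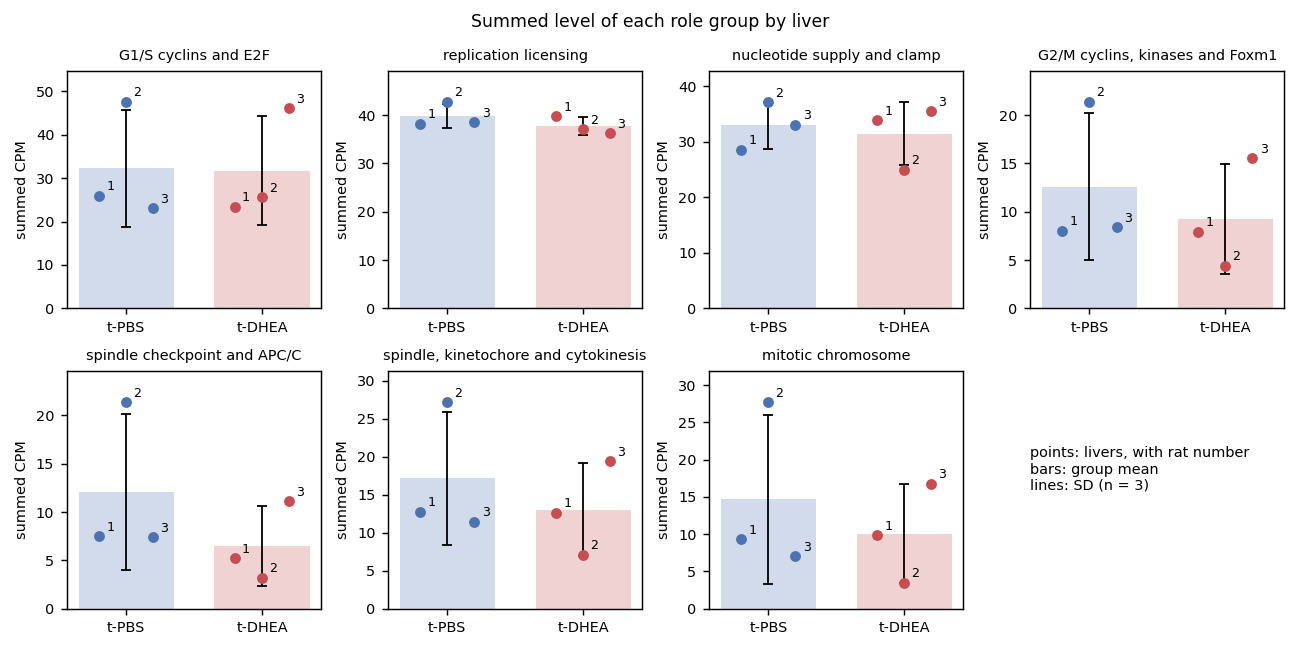
Summed CPM (y axes, starting at 0) of the genes of each of 7 role groups in t-PBS and t-DHEA livers (x axes), with points for livers labelled by rat number, bars for group means and lines for the SD (n = 3). In the mitosis groups t-PBS rat 2 and t-DHEA rat 3 stand above the other livers of their group, and in replication licensing the 6 livers lie between 36.2 and 42.8 CPM.

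Of the G1/S group, Ccnd1 (cyclin D1, chr1:218090750-218100325 in Rnor_6.0), which couples growth signals to the cycle, was at 23.9, 42.4 and 20.8 CPM in t-PBS and 20.6, 24.4 and 42.9 CPM in t-DHEA livers. One liver of each group was high, at nearly the same level, and the log2 fold-change was 0.015 ± 0.40 (SE) with a 95% interval from −0.99 to 1.02. Ccne2 (cyclin E2, chr5:24434872-24446406), which drives entry into S phase, was at 0.981, 2.43 and 0.604 CPM against 1.07, 0.598 and 0.927 CPM. Here t-PBS rat 2 alone was high and t-DHEA rat 3 was not, and the log2 fold-change of −0.63 ± 0.52 had an interval from −1.79 to 0.53. Ccne2 overlaps Ints8, which held 338 to 444 counts in each liver, so that its own count is uncertain. Ccne1 and E2f1, the latter the transcription factor that activates S phase genes, had log2 fold-changes of −0.22 and −0.27.

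The replication licensing group, the helicase Mcm2 to Mcm7 with its loaders Cdc6 and Cdt1, was even between livers in its sum, though not in each gene. Its summed level was 39.8 ± 2.54 CPM in t-PBS and 37.7 ± 1.81 CPM in t-DHEA livers (SD, n = 3). Mcm7 (chr12:19306607-19314016) was at 14.6, 12.4 and 12.5 CPM in t-PBS and 13.1, 11.8 and 11.8 CPM in t-DHEA livers. Neither t-PBS rat 2 nor t-DHEA rat 3 was high, and the log2 fold-change was −0.10 ± 0.13. Mcm6 (chr13:45042882-45068077) was at 3.22, 4.28 and 3.02 CPM against 2.56, 3.14 and 3.48 CPM, with a log2 fold-change of −0.19 ± 0.24 (interval −0.72 to 0.33). Cdc6 was too low to test, with 30 counts over the t-PBS and 16 over the t-DHEA livers, of which t-DHEA rat 2 held 1. The other 5 genes tested in the group had log2 fold-changes from −0.19 for Mcm5 to 0.20 for Mcm3. Mcm5 was uneven, at 1.12, 2.36 and 0.906 CPM in t-PBS and 1.57, 0.898 and 1.39 CPM in t-DHEA livers. Its highest liver was t-PBS rat 2 and its lowest t-DHEA rat 2. None of the 7 licensing genes tested showed t-PBS rat 2 and t-DHEA rat 3 as the top pair with t-DHEA rat 2 lowest.

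Genes of nucleotide supply and the replication clamp spanned 1.49 times between livers in their summed level, with t-DHEA rat 2 lowest, and Pcna varied little. Pcna (chr3:124880698-124884570), the sliding clamp of DNA polymerase, was at 11.6, 14.6 and 14.3 CPM in t-PBS and 13.5, 12.6 and 13.8 CPM in t-DHEA livers. Its log2 fold-change was −0.02 ± 0.13 (interval −0.31 to 0.27), and t-DHEA livers lay inside the range of t-PBS livers. Rrm1 (chr1:167538387-167562687), the large subunit of ribonucleotide reductase, was at 12.5, 16.9 and 14.2 CPM against 14.5, 9.43 and 14.9 CPM. Here t-PBS rat 2 and t-DHEA rat 3 were highest and t-DHEA rat 2 lowest. The log2 fold-change of Rrm1 was −0.17 ± 0.19 (interval −0.59 to 0.26). Tyms, thymidylate synthase, was at 4.14, 5.01 and 4.30 CPM against 5.61, 2.84 and 6.10 CPM. Its highest liver was t-DHEA rat 3 and its lowest t-DHEA rat 2, and the log2 fold-change was 0.11. Rrm2, the small reductase subunit, held 18 counts over the t-PBS and 13 over the t-DHEA livers and was not tested. By liver the Rrm2 counts were 5, 9 and 4 in t-PBS and 4, 1 and 8 in t-DHEA. A second locus annotated as a copy could share its reads.

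Among the G2/M regulators the livers separated widely within each group. Ccna2 (cyclin A2, chr2:123275881-123282214) was at 0.561, 4.28 and 1.13 CPM in t-PBS and 0.578, 0.0748 and 1.70 CPM in t-DHEA livers, the lowest of these resting on 1 count. Cdk1 (chr20:20576377-20591549), the kinase that starts mitosis, was at 0.561, 3.76 and 1.13 CPM against 0.495, 0.224 and 2.32 CPM. Ccnb1 (cyclin B1, chr2:30783915-30791221), its partner, was at 0.771, 3.47 and 1.06 CPM against 0.826, 0.15 and 1.93 CPM. For each of these 3 genes t-PBS rat 2 was highest, t-DHEA rat 3 next and t-DHEA rat 2 lowest. Log2 fold-changes were −1.33 ± 1.05 for Ccna2, −0.83 ± 0.99 for Cdk1 and −0.86 ± 0.85 for Ccnb1, so that each estimate was near its own error. Ccna2 overlaps Exosc9 (165 to 196 counts in each liver), which makes its count uncertain as well.

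Aurka (chr3:170364181-170378210), the kinase that matures the spindle poles, departed from this order, at 2.31, 2.43 and 2.34 CPM in t-PBS and 2.81, 2.24 and 3.48 CPM in t-DHEA livers. The 3 t-PBS livers were nearly equal, and the log2 fold-change of 0.27 ± 0.25 (interval −0.29 to 0.82) was the highest of the 32 genes. Plk1, another mitotic kinase, had no count in t-DHEA rat 2 and 2.06 CPM in t-PBS rat 2, with a log2 fold-change of −0.30 ± 0.89. Foxm1, the transcription factor of this wave, was at 2.24, 3.17 and 1.36 CPM against 1.4, 1.5 and 2.47 CPM, with a log2 fold-change of −0.33 ± 0.37. Aurkb, the kinase of the chromosomal passenger complex, was not tested, with 47 counts over the t-PBS and 33 over the t-DHEA livers.

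The 3 checkpoint genes tested had a median log2 fold-change of −0.95, the most negative of the 7 role groups. Bub1b (chr3:110367939-110420458) encodes BubR1, which holds the anaphase-promoting complex until chromosomes are attached, and was at 0.841, 3.17 and 0.377 CPM in t-PBS and 0.165, 0.299 and 0.85 CPM in t-DHEA livers. t-PBS rat 2 stood 5.20 times above the mean of the other t-PBS livers, whereas t-DHEA rat 3 was level with t-PBS rat 1, so the groups overlapped. The log2 fold-change was −1.71 ± 0.89 (interval −3.77 to 0.36). Cdc20 (chr5:137260728-137264931), the activator of that complex, was at 3.36, 9.73 and 3.02 CPM against 1.73, 0.973 and 5.64 CPM. The t-DHEA liver of rat 3 lay above t-PBS rats 1 and 3, and the log2 fold-change was −0.95 ± 0.80 (interval −2.96 to 1.07). Bub1, a kinase of the same checkpoint, had a log2 fold-change of −0.47. Ttk and Ube2c were too low to test, with 29 and 35 counts over the t-PBS and 9 and 15 over the t-DHEA livers.

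In the spindle group, Kif11 (chr1:256035866-256088299), the motor that pushes spindle poles apart, was at 2.38, 3.47 and 1.66 CPM in t-PBS and 1.82, 0.898 and 1.93 CPM in t-DHEA livers. The groups overlapped, with t-PBS rat 3 below t-DHEA rats 1 and 3, and the log2 fold-change was −0.70 ± 0.38 (interval −1.53 to 0.14). Tpx2 (chr3:148327965-148370187), a microtubule nucleator that activates Aurora A, was at 4.42, 6.34 and 4.98 CPM against 4.79, 4.04 and 6.41 CPM. Rat 2 of t-PBS and rat 3 of t-DHEA were again the high livers, at like levels, and the log2 fold-change was −0.05 ± 0.22 (interval −0.54 to 0.45). The remaining 5 genes tested in the group, Kif20a, Cenpe, Cenpf, Nusap1 and Birc5, had log2 fold-changes from −1.05 for Cenpf to −0.04 for Birc5. Kif20a overlaps Cdc23 (133 to 198 counts), and Cenpf had no count in t-DHEA rat 2. Kif23, a motor of cytokinesis, was not tested, with 43 counts over the t-PBS and 19 over the t-DHEA livers.

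Mki67 (chr1:207993895-208020454), whose product coats mitotic chromosomes and serves as the common marker of cycling cells, was at 5.61, 17.0 and 4.68 CPM in t-PBS and 5.37, 2.69 and 10.2 CPM in t-DHEA livers. Top2a (chr10:86901007-86932154), the topoisomerase that untangles sister chromatids, was at 3.72, 10.8 and 2.34 CPM against 4.46, 0.823 and 6.57 CPM. In both, t-PBS rat 2 was highest, t-DHEA rat 3 second and t-DHEA rat 2 lowest. These gaps exceeded counting error, since the 230 counts of Mki67 in t-PBS rat 2 had an exact 95% Poisson interval of 201 to 262 and the 80 counts in t-PBS rat 1 one of 63.4 to 99.6. Log2 fold-changes were −0.58 ± 0.73 for Mki67 and −0.51 ± 0.89 for Top2a, smaller than their errors.

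**Figure D4:**
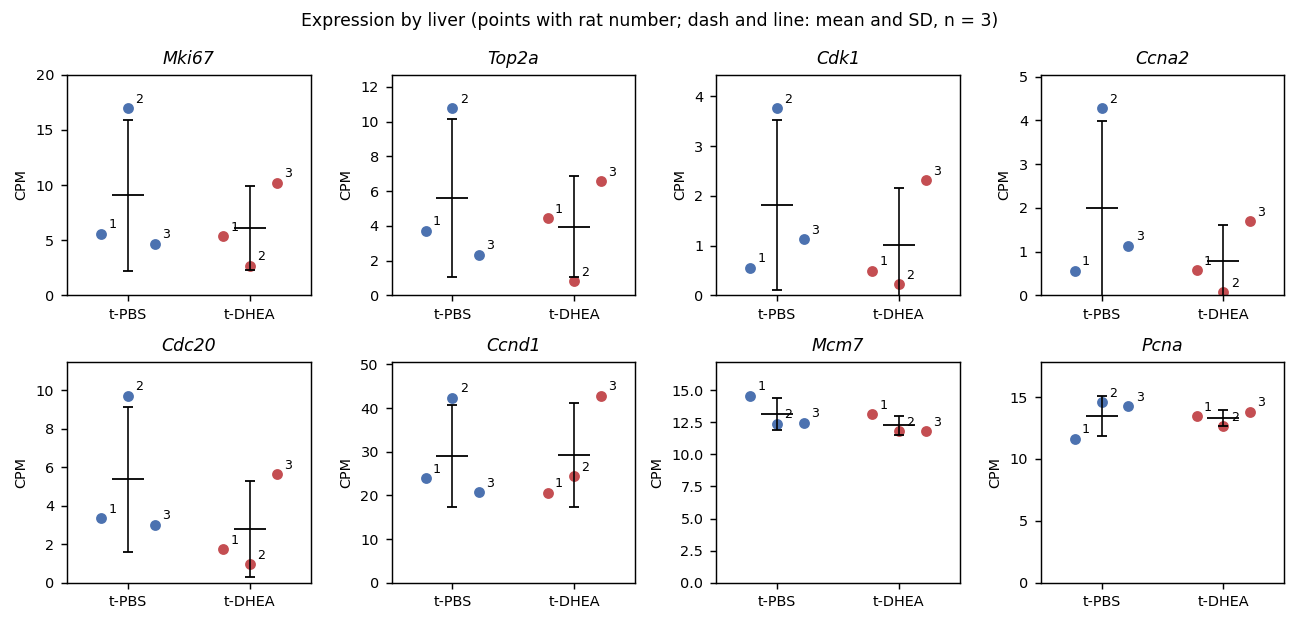
CPM (y axes, starting at 0) of 8 genes in t-PBS and t-DHEA livers (x axes), with points for livers labelled by rat number, dashes for group means and lines for the SD (n = 3), cut at 0 where they would pass below it. For Mki67, Top2a, Cdk1, Ccna2 and Cdc20 the points of t-PBS rat 2 and t-DHEA rat 3 lie above the others of their group, whereas Mcm7 and Pcna vary little.

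Per transcript length, by the FPKM values of the authors averaged over the 6 livers, levels of the 38 genes ran from 11.6 FPKM for Pcna to 0.116 FPKM for Ttk. Replication genes led this order, with Mcm7 at 5.11 and Rrm1 at 4.57 FPKM after Pcna. Ccnd1 followed at 4.26 FPKM. The highest mitosis gene was Cdc20 at 2.32 FPKM, and Mki67 and Top2a were near each other at 0.775 and 0.762 FPKM. Because the livers differed several-fold in mitosis genes, the order among those is not firm.

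The spread between rats of a group was itself large for many of the mitosis genes. The biological coefficient of variation, the rat-to-rat SD relative to the mean beyond counting noise, had a median of 0.323 over the 32 genes and of 0.136 over all genes tested. These medians are not at like abundance, since the coefficient was higher in genes with few counts. For Ccne1 it was 0.268, where genes of its abundance had 0.26, and for Mcm7 0.112, where such genes had 0.145. The coefficient was 0.592 for Mki67, where genes of its abundance had 0.16, and 0.742 for Top2a and 0.86 for Ccna2. In 12 of the 32 genes it exceeded the trend at that abundance more than 2-fold, as it did in 330 of all 12210 genes (2.7%). These were 11 of the 18 mitosis genes tested and Ccnd1, and none of the 10 replication genes.

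The sign and size of the group difference depended on single livers. Without t-PBS rat 2 the median log2 fold-change of the genes tested turned from −0.29 to 0.11, with 12 genes lower and 20 higher in t-DHEA. Without t-DHEA rat 2 it was −0.05, with 18 lower and 16 higher. Without t-DHEA rat 3 it was −0.66, and 4 genes were then called lower (Bub1b, Cdc20, Cdk1 and Nusap1, 12.5% of 32). In that fit 4.92% of all genes were called in either direction, 609 genes of which 253 were higher. Without t-PBS rat 3 the median was −0.59, and Bub1b and Kif11 were called lower (5.88% of 34). In that fit 5.22% of all genes were called in either direction, 647 genes of which 292 were higher. Leaving out rat 1 of t-PBS gave −0.44 and rat 1 of t-DHEA −0.32, with no gene of the 34 tested called.

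**Figure D5:**
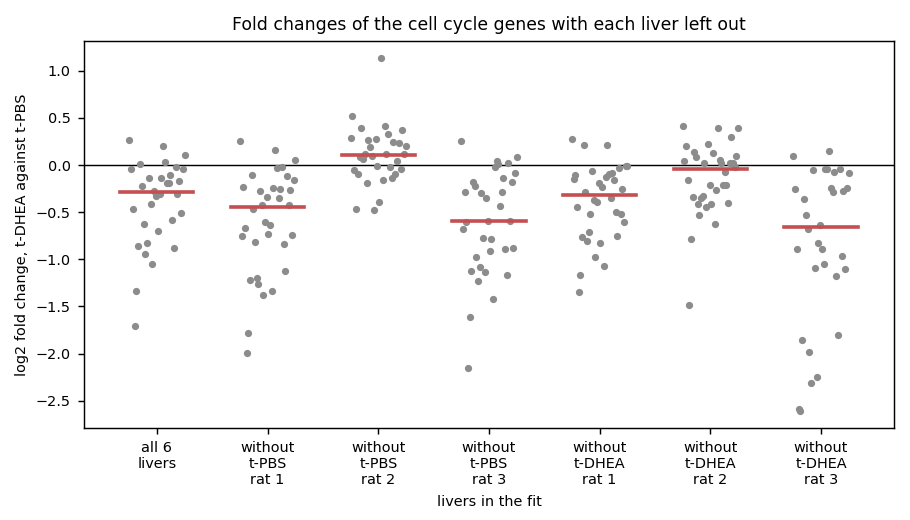
Log2 fold-changes of t-DHEA against t-PBS (y axis) of the cell cycle genes tested with 6 livers and with each liver left out in turn (x axis), each grey point 1 gene and each red line the median. The median lies at −0.29 with 6 livers, at −0.66 without t-DHEA rat 3, and above 0 only without t-PBS rat 2.

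Other genes of the cycle were read in lists that are no part of the 39. Of 39 other mitosis genes tested (among them kinetochore, condensin and central spindle proteins), 0 were called by the quasi-likelihood test or at an unadjusted p below 0.05, 28 were lower, and the median log2 fold-change was −0.20. The 64 genes of this list that were found, tested or not, summed to 185, 297 and 162 CPM in t-PBS and 177, 130 and 231 CPM in t-DHEA livers. The order of livers was the same at both ends. t-PBS rat 2 and t-DHEA rat 3 as the top pair with t-DHEA rat 2 lowest was found in 15 of the 39 other mitosis genes tested and in 1.82% of all genes. It was found in 16 of the 32 genes of the main list, in which the order was first seen. Of 40 other replication genes tested it was found in 2, and the summed level of the 51 found stayed between 441 and 486 CPM. The median log2 fold-change of the 40 tested was 0.02, and Cdc25a, the phosphatase that activates CDK2, was called.

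Over the 5 further pathway lists 141 genes were tested and 6 were called, each lower in t-DHEA (4.26% of 141, against 2.93% of all genes called lower). Of the 26 further G1 and E2F genes 1 was called, of 16 CDK inhibitors and growth-arrest genes 1, and of 20 liver growth signals and immediate early genes 3, with median log2 fold-changes of −0.03, 0.03 and −0.15. Cdc25a was at 13.0, 11.1 and 10.6 CPM in t-PBS and 8.50, 10.2 and 8.50 CPM in t-DHEA livers, and its log2 fold-change was −0.35 ± 0.15. Lin9, a MuvB subunit, was at 1.68, 1.03 and 1.13 CPM against 0.743, 0.823 and 0.541 CPM, a log2 fold-change of −0.86 ± 0.38. Cdkn1c, the CDK inhibitor p57, was at 1.82, 1.62 and 2.42 CPM against 1.24, 0.673 and 1.39 CPM, a log2 fold-change of −0.83 ± 0.35. In these 3 genes the groups did not overlap, and the adjusted p by edgeR's quasi-likelihood test was 0.99. Of the 141 genes tested, 10 had groups that did not overlap, against 10.1% of all genes tested.

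Tgfb1, a cytokine that restrains hepatocyte division, fell from 12.7, 12.4 and 12.3 CPM in t-PBS to 8.17, 8.08 and 10.04 CPM in t-DHEA livers. Its log2 fold-change was −0.51 ± 0.14 (adjusted p = 0.74 by edgeR), without overlap of the groups. The log2 fold-changes of Ctgf, a matrix-associated growth factor induced by TGF-beta and Yap1, and Ier3, an immediate early gene, were −0.64 ± 0.29 and −0.40 ± 0.15, both past the criteria but with overlapping groups. Myc was at 17.6, 9.07 and 7.47 CPM against 5.20, 6.28 and 9.35 CPM, a log2 fold-change of −0.71 ± 0.37, its highest liver being t-PBS rat 1. The CDK inhibitors Cdkn1a (p21) and Cdkn1b (p27) had log2 fold-changes of −0.56 ± 0.45 and −0.12 ± 0.12, and Wee1, the kinase that holds Cdk1 inactive, one of 0.17 ± 0.34, none of the 4 past the criteria.

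The summed markers of some non-parenchymal cells shared the highest and lowest liver with mitosis genes. The order with t-PBS rat 2 and t-DHEA rat 3 as the top pair and t-DHEA rat 2 lowest was also read in single markers. It was found in 0 of 8 stellate, 1 of 5 bile duct and 0 of 5 mesothelial markers tested. In mitosis genes it was found in 13 of 18, but the order was first seen in the cell cycle genes. Their share is therefore no test against the markers. Counts of these markers called lower stand against 2.93% of all genes called lower. The 8 stellate cell and fibroblast markers summed to 562, 730 and 634 CPM in t-PBS and 526, 462 and 543 CPM in t-DHEA livers, and 3 of 8 tested were called lower in t-DHEA (Col1a1, Col3a1 and Lum). The 6 bile duct markers summed to 19.1, 23.6 and 18.9 CPM against 13.2, 9.50 and 17.1 CPM, with 2 of 5 tested called lower (Krt19 and Krt7). The 6 mesothelial markers summed to 24.6, 27.1 and 26.4 CPM against 6.11, 1.72 and 12.5 CPM, with 4 of 5 tested called lower (Msln, Upk3b, Muc16 and Upk1b). None of these 3 lists had a marker at 0 in all livers. Within t-PBS the mesothelial sums differed little. The part of these cells in the levels of the cell cycle genes was not tested.

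Markers of endothelial, blood and immune cells did not share that order. Endothelial markers were lowest in t-PBS rat 1 (242 CPM) and between 342 and 366 CPM in the other 5 livers, with 1 of 7 tested called higher in t-DHEA, as were 1.85% of all genes. Kupffer cell and macrophage markers were lowest in t-PBS rat 2 (611 CPM, against a range of 611 to 755 CPM in t-PBS and 663 to 904 CPM in t-DHEA livers), and none of 10 tested was called. T and NK cell markers lay between 34.9 and 39.3 CPM in the 6 livers, with none of 7 tested called. B and plasma cell markers ran from 101 to 147 CPM in t-PBS and 114 to 165 CPM in t-DHEA livers, with t-PBS rat 2 lowest. Markers of red cell precursors were also lowest in t-PBS rat 2 (45.7 CPM), and Gata1 was at 0 in each liver. Neutrophil markers summed to between 0.755 and 2.81 CPM, with 1 of 2 tested called higher in t-DHEA (1.85% of all genes), and Mpo, Prtn3 and Ltf were at 0 in each liver. Of the 10 hepatocyte markers tested, 1 was called higher in t-DHEA, against the same 1.85% of all genes.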

How the data were processed

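Liver mRNA of 3 t-PBS and 3 t-DHEA rats was sequenced as paired-end libraries. The authors filtered reads with Seqtk, mapped them to Rnor_6.0 with Hisat2 (HISAT2 2.0.4) and counted fragments per gene with StringTie 1.3.0. They deposited raw counts and, made from them, FPKM values. The annotation release and strandedness are not given in the sources used here, so overlapping genes are uncertain. No authors' comparison columns were used.

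Raw counts were fitted with edgeR 4.0.16 in R 4.3.3 (TMM, default filter, robust quasi-likelihood test, no covariates), with p-values adjusted over all 12210 genes tested. The study applied its thresholds to FPKM values with edgeR, which needs counts, so the count columns were used. FPKM served for levels between genes and, with limma 3.58.1 on log2(FPKM + 0.1) or log2(FPKM + 1), for alternatives. Others were DESeq2 1.42.0, the likelihood-ratio test, RLE factors, other filters, a fold-change above 1.5, a replicate block and each liver left out. SE was derived from the test statistic. Scripts were tested on simulated data.

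Depth was 12348511 to 14316886 counts per liver, and chi-square per degree of freedom between any pair of livers was 16.1 or more, so none is a repeat of another. The cell cycle genes and the other lists were chosen with earlier results of these data known. Of 317 list entries, 304 matched by name, 5 through older symbols and 8 not at all, and a symbol with several rows took the one with most counts. Values in every liver are given for the lowest p and the highest mean count of each role group and for Mki67, Top2a, Cdk1, Ccnb1, Ccnd1 and Pcna. From the other lists, called genes and Cdkn1a, Cdkn1b, Wee1 and Myc are named. Foxm1, and the cell type markers that were called, were named after their values were seen. Groups came from the sample titles.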

Additional observations from a re-analysis of the deposited data

How the results depend on the processing

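Under the alternatives that changed the test, scaling, filter or block, the 32 to 38 cell cycle genes tested kept a negative median log2 fold-change (from -0.34 without the filter to -0.12 with limma on log2(FPKM + 1)), and DESeq2 and the likelihood-ratio test each called 1 of them. With each liver left out, their median ran from -0.66 to 0.11 and the number called from 0 to 4. The number of all genes called was 251 at a fold-change above 1.5 and ran from 491 to 734 with a liver left out. Of the other pathway lists, DESeq2 called 3, no filter 10 and a fold-change above 1.5 3, and leaving out a liver 4 to 13. The main fit did not pair livers by rat number. Deviations of same-numbered livers correlated at -0.05, -0.06 and -0.05, and those of the other pairs at -0.07 to 0.12. Such values show no pairing but cannot exclude it. With the replicate block, 536 genes were called, none of the cell cycle genes (median log2 fold-change -0.26) and 4 of the other lists. Ccnd1 turned to -0.025 and -0.021 with limma at the lower and higher pseudocount. With a liver left out, the log2 fold-changes of 20 of the 32 cell cycle genes crossed 0, of 15 without t-PBS rat 2. They ran for Ccnd1 from -0.36 to 0.39, Ccne2 from -0.97 to 0.12, Rrm1 from -0.27 to 0.023, Pcna from -0.12 to 0.043, Ccnb1 from -1.86 to 0.086, Cdk1 from -2.32 to 0.27, Tpx2 from -0.24 to 0.12, Mki67 from -1.17 to 0.24, Top2a from -1.10 to 0.38 and Kif20a from -1.05 to 1.13, and for Wee1 of the other lists from -0.087 to 0.42. Others kept their sign but shrank without t-PBS rat 2, Bub1b to -0.47, Ccna2 to -0.10 and Cdc20 to -0.20. Each of the 6 called genes of the other lists lost the call under at least 1 alternative. Tgfb1 kept it with each liver left out (from -0.61 to -0.45) but its fold-change is under 1.5. The cause of these changes was not tested. Counts under 10 in single livers limit the precision of Ccna2, Ccnb1, Cdk1 and Bub1b.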

Other observations

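Most of the 222 genes that had t-PBS rat 2 and t-DHEA rat 3 as the highest pair and t-DHEA rat 2 as the lowest liver were in none of the cell cycle lists. The following ones were chosen after their values were seen. Aox1, an aldehyde oxidase of hepatocytes, was at 453, 576 and 447 CPM in t-PBS rats 1, 2 and 3 and at 349, 116 and 750 CPM in t-DHEA rats 1, 2 and 3. Got1, the cytosolic aspartate aminotransferase, was at 111, 175 and 110 CPM against 132, 82.7 and 190 CPM. Tuba1b, an alpha-tubulin gene, was at 81.9, 117 and 78.7 CPM against 79.7, 65.2 and 92.0 CPM. The gap between t-PBS rat 2 and t-DHEA rat 2 was thus 4.95-fold for Aox1, 2.11-fold for Got1 and 1.79-fold for Tuba1b, against 6.30-fold for Mki67 and 13.1-fold for Top2a. Among the same genes, RT1-N2, a class I histocompatibility gene, had a gap of 6.38-fold, above that of Mki67.

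Fam111a, which encodes a protease that acts at stalled replication forks, was at 202 CPM in t-DHEA rat 3 and between 0.224 and 1.62 CPM in the other 5 livers. Its log2 fold-change of 5.85 rests on that liver (adjusted p = 0.993 by edgeR's quasi-likelihood test).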
